A study of Mus musculus with 28 samples.

Results

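Heat shock genes of the cytosol and of the mitochondrion encode chaperones, proteins that help other proteins fold and that bind them when they unfold. In the cytosol, HSP70 binds exposed stretches of unfolded protein in cycles driven by ATP. J proteins deliver clients to HSP70, HSP110 exchanges its nucleotide, and HSP90 takes over clients that are close to their final fold. In the mitochondrial matrix, HSP60 and HSP10 form a closed folding chamber. Heat shock factor 1 (HSF1) is the transcription factor that raises many of these genes when unfolded protein accumulates, and in the liver the mRNA of several of them is known to follow body temperature.

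The genes listed for this account were Hsph1, Dnajb1, Hspa8, Hsp90aa1, Hsp90ab1, Hspd1, Hspe1, Hspb1, Bag3 and Hsf1. A gene was measured where a probe set of the array named that gene and no other, and of several such probe sets the brightest on average was taken. By this rule 8 of the 10 genes were measured, out of 18820 genes in all, with 16 probe sets between them. Hsp90ab1, the constitutive cytosolic HSP90, and Hsf1 itself had no such probe set in the annotation used and were not analysed here.

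Liver RNA of 28 male C57BL/6J mice was measured, each on an array of its own. Every mouse ended its life on an intermittent diet, 1 week of free access to a moderate-fat food (25% of energy from fat) and 1 week at 60% of the energy eaten by control mice, in turn. Mice on it from 9 weeks of age are called lifelong here and were sampled in groups of 6 at 6 months, 7 at 12 months and 7 at 24 months. Mice of the switched group (n = 8) ate the moderate-fat food until 12 months of age, then followed the intermittent diet, and were sampled at 24 months. Mice were housed alone, and before the liver was frozen they were fasted for 4 h and then for 6 h more, with a gavage of carboxymethyl cellulose in between. The labels do not say in which week of the diet cycle the mice were sampled. Livers on constant diets were not analysed here, so age and time on the diet cannot be told apart in the lifelong groups.

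Values are the authors' log2 expression values, so a difference of 1 is a doubling. Group values are given as mean ± SD, and differences come from 1 limma fit of all arrays with the group and the array-name prefix (G150, G151 or G152) as terms. The threshold is an adjusted p of 0.05 after Benjamini-Hochberg adjustment over all 35556 probe sets. Array medians lay between 5.23 and 5.31, and pairs of arrays correlated at 0.978 to 0.992. The labelled tissue was borne out by its markers: the mean level of 8 measured hepatocyte markers lay between 12.85 and 13.05 in every liver.

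Old livers had less mRNA of several of these chaperones than 6-month livers. In lifelong mice at 24 months, 2 of the 8 genes passed as lower, Hsph1 and Dnajb1, and none passed as higher. In this comparison 2.63% of all probe sets passed as lower and 4.73% passed in either direction. In switched mice at 24 months, 4 of the 8 passed as lower against 6 months, Hsph1, Dnajb1, Hspd1 and Hspe1, where 5.39% of all probe sets passed as lower and 10.0% in either direction. Probe sets that passed as higher made up 2.10% and 4.66% in the lifelong and switched comparisons. Both old groups were compared with the same 6 young livers, so the counts share those controls. Fewer cells of a type and less RNA per cell cannot be told apart in whole liver.

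Hsph1 encodes HSP110, the large relative of HSP70 that exchanges its nucleotide. Its values in the 6 young livers were 8.05, 8.82, 9.06, 8.46, 7.83 and 8.79, a mean of 8.50 ± 0.48 (SD, n = 6). At 12 months they ran from 7.51 through a median of 7.93 to 8.31 (mean 7.95 ± 0.26, SD, n = 7). At 24 months they ran from 6.97 through 7.69 to 7.96 (mean 7.59 ± 0.39, SD, n = 7), and in switched mice from 7.23 through 7.63 to 8.01 (mean 7.61 ± 0.27, SD, n = 8). All 7 lifelong and all 8 switched old livers lay under the young mean, and 4 and 6 of them under every young liver, while the others overlapped with the lowest young liver alone. The difference between 24 and 6 months was -0.92 (SE 0.19, 95% interval -1.32 to -0.52, adjusted p = 0.00686), a level 1.90-fold lower. In switched mice it was -0.88 (SE 0.19, adjusted p = 0.00322), or 1.84-fold lower. With only the groups compared in the fit, the lifelong call was lost (adjusted p = 0.0673) and the switched call was not (adjusted p = 0.0202). At 12 months the difference from 6 months was -0.56 (SE 0.19, adjusted p = 0.179) and did not pass.

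**Figure D1:**
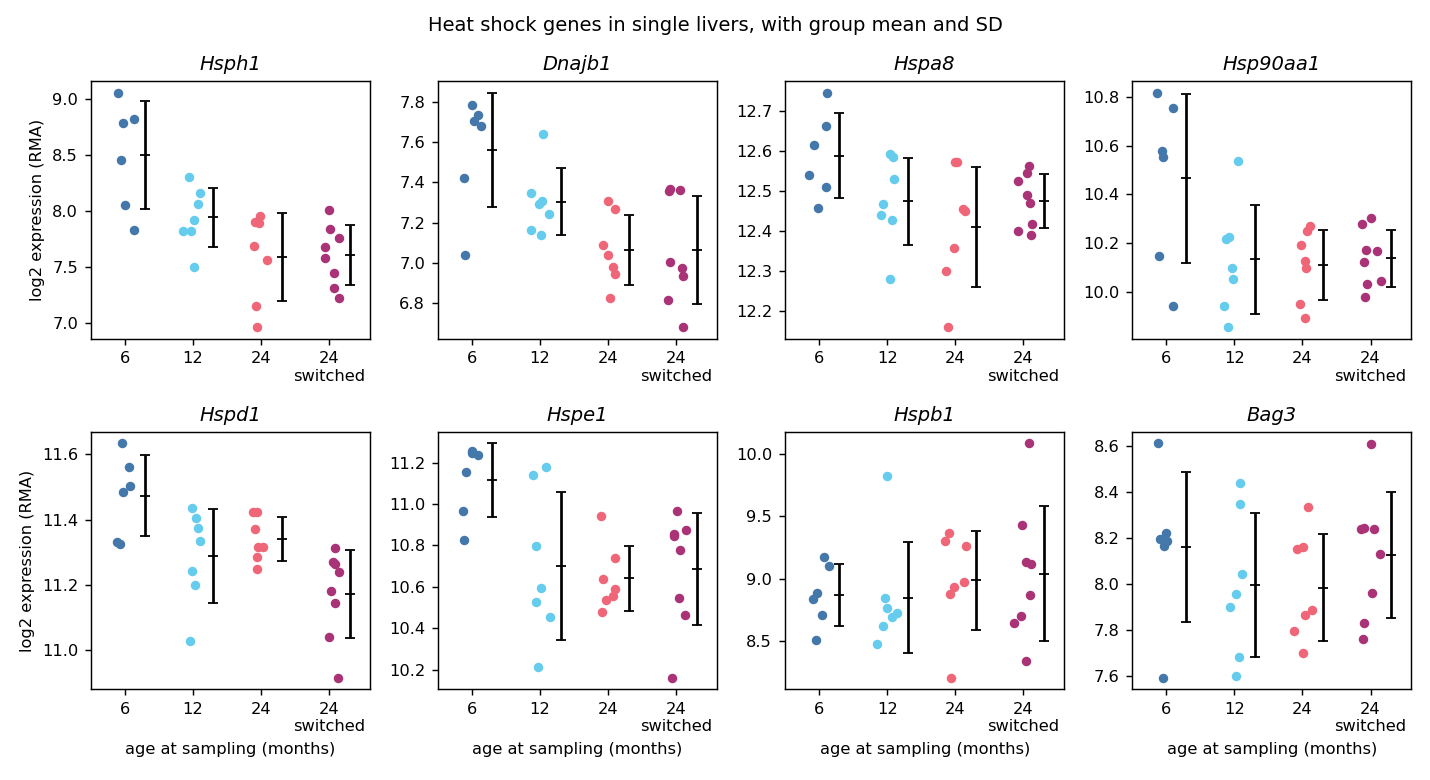
Log2 expression (RMA) of the 8 measured heat shock genes in each of the 28 livers, against age at sampling in months; each point is 1 mouse and the bar beside each group is its mean with SD. Hsph1 runs from a mean of 8.50 at 6 months to 7.59 at 24 months, with the lowest young liver inside the old range, and the groups of Hspb1 and Bag3 overlap more widely.

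Dnajb1 encodes the J protein HSP40, which brings unfolded clients to HSP70 and works with HSP110 in taking aggregates apart. Its mean was 7.56 ± 0.28 (SD, n = 6; 7.04, median 7.69, 7.78) at 6 months and 7.30 ± 0.17 (SD, n = 7; 7.14, 7.29, 7.64) at 12 months. It was 7.06 ± 0.17 (SD, n = 7; 6.82, 7.04, 7.31) at 24 months and 7.06 ± 0.27 (SD, n = 8; 6.68, 6.99, 7.37) in switched mice. The old groups lay wholly under the young mean, and 1 low young liver kept the ranges from separating. Dnajb1 was 1.41-fold lower at 24 than at 6 months (-0.50, SE 0.12, adjusted p = 0.0206) and 1.40-fold lower in switched mice (-0.49, SE 0.12, adjusted p = 0.0101). The lifelong call was lost without 6-month replicate 2, 3 or 6 (adjusted p = 0.0518, 0.0635 and 0.0742). Both calls were lost with only the groups compared in the fit (adjusted p = 0.0585 and 0.0579).

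Hspa8 encodes HSC70, the constitutive cytosolic HSP70. It ran from 12.46 through a median of 12.58 to 12.75 at 6 months, from 12.28 through 12.47 to 12.59 at 12 months, from 12.16 through 12.45 to 12.57 at 24 months and from 12.39 through 12.48 to 12.56 in switched mice. All 7 lifelong and all 8 switched old livers lay under the young mean of 12.59, but both groups overlapped with the young livers. The difference at 24 months was -0.18 (SE 0.07, adjusted p = 0.110) and in switched mice -0.11 (SE 0.06, adjusted p = 0.302), so neither passed. Of its other 2 probe sets, 1 did pass at 24 months (-0.26, adjusted p = 0.0277) and the other did not (-0.20, adjusted p = 0.0715).

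Hsp90aa1, the stress-inducible cytosolic HSP90, had a mean of 10.47 ± 0.35 (SD, n = 6) at 6 months, 10.13 ± 0.22 (SD, n = 7) at 12 months, 10.11 ± 0.14 (SD, n = 7) at 24 months and 10.14 ± 0.12 (SD, n = 8) in switched mice. The young livers were spread from 9.94 to 10.82 with a median of 10.57, the 12-month livers from 9.86 to 10.54 with a median of 10.10, the 24-month livers from 9.89 to 10.27 with a median of 10.13 and the switched livers from 9.98 to 10.30 with a median of 10.14. The young livers fell into 4 high and 2 low ones, and the 2 low ones lay inside the range of the lifelong 24-month livers. No difference passed, at -0.34 (adjusted p = 0.196) for 12 months, -0.36 (adjusted p = 0.0792) for 24 months and -0.32 (adjusted p = 0.0815) for switched mice against 6 months. Without 6-month replicate 1 or without replicate 5, the 2 low young livers, it passed in both old groups. The adjusted p was then down to 0.0153 at 24 months and 0.0128 in switched mice. With single livers left out it passed in only 2 of 13 fits at 24 months and 2 of 14 in switched mice. The adjusted p ran up to 0.195 and 0.231 in these fits.

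Hspd1 encodes HSP60 and Hspe1 its lid HSP10, and both genes stand head to head on mouse chromosome 1 and share a promoter region. Heat shock elements, the sites that HSF1 binds, are built from GAA units in alternating orientation, and for each gene the 30 bases of the promoter with the densest such letters are printed. Promoter sequences are RefSeq windows of GRCm38.p6, from 250 bases before to 50 bases after a start site, and 6 of the 10 listed genes had one. Capitals mark heat shock element units, each written 5′ to 3′ on the gene's strand.
Hspe1 (chr1:55088053-55088082, plus strand, bases -95 to -66 from the start): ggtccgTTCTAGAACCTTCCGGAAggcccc
Hsph1 (chr5:149636287-149636316, minus strand, bases 21 to 50 after the start): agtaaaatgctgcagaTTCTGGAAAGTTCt
Hspb1 (chr5:135887801-135887830, plus strand, bases -118 to -89): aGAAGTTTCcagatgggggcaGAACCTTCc
Bag3 (chr7:128523603-128523632, plus strand, bases 21 to 50 after the start): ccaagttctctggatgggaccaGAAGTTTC

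These sequences are shown for genes that passed as lower (Hsph1 in both old groups, Hspe1 in switched mice) and genes that did not pass (Hspb1, Bag3). The genes were picked for display by these results, and a link between motifs and differences was not tested. The reverse complement of the Hspe1 stretch lay in 1 of the 2 Hspd1 windows. The 3-unit motif searched was GAANNTTC followed by NNGAA, on both strands. It was found in the windows of Hspd1, Hspe1 and Hsph1, in 2 of 53 other chaperone genes (Chordc1 and Dnajb6) and in 0.603% of all 32851 windows. The pair motif GAANNTTC, which reads the same on both strands and lies within the 3-unit motif, was found for 5 of the 6 listed genes, 12 of 53 other chaperone genes and 7.86% of windows. The other pair motif, TTCNNGAA, overlaps it and was found for 3 of the 6 genes, 7 of 53 other chaperone genes and 8.52% of windows. Dnajb1, which passed as lower in both old groups, held none of these motifs in its window. This says only that these letters are not in those 300 bases. A match in letters is not a bound site, and no binding was measured.

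Hspd1 was the one member whose switched and young livers did not overlap, on the probe set that stood for it. Its 6-month values ran from 11.33 through a median of 11.49 to 11.63 around a mean of 11.47 ± 0.12 (SD, n = 6). The switched values ran from 10.92 through 11.21 to 11.31, a mean of 11.17 ± 0.13 (SD, n = 8), so that all 8 lay under every young liver. Over the array, 1.28% of probe sets had the switched group wholly under the young one. The difference was -0.30 (SE 0.07, adjusted p = 0.00565), or 1.23-fold lower. On its second probe set the groups did overlap (lowest young liver 11.05, highest switched liver 11.16), and the switched difference there was -0.29 (adjusted p = 0.0318). At 12 months Hspd1 ran from 11.03 through 11.34 to 11.44 (-0.19, adjusted p = 0.231) and in lifelong mice at 24 months from 11.25 through 11.31 to 11.42 (-0.13, adjusted p = 0.355), and neither passed.

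Hspe1 lay at 11.11 ± 0.18 (SD, n = 6; 10.82, median 11.20, 11.26) in young livers, and at 10.70 ± 0.36 (SD, n = 7; 10.21, 10.60, 11.18) at 12 months. At 24 months it was 10.64 ± 0.16 (SD, n = 7; 10.48, 10.59, 10.94) and in switched mice 10.69 ± 0.27 (SD, n = 8; 10.16, 10.81, 10.97). Each group overlapped with the young livers: 5 of 7 livers at 12 months, 6 of 7 at 24 months and 4 of 8 in the switched group lay under every young liver. The switched difference was -0.44 (SE 0.14, adjusted p = 0.0400), 1.35-fold lower. The lifelong difference at 24 months was as large, -0.47 (SE 0.14), with an adjusted p of 0.0535. Its second probe set passed in both old groups, at -0.50 (adjusted p = 0.0447) and -0.48 (adjusted p = 0.0293). The switched call was lost without any of 7 single livers, 6-month replicates 2, 3, 4 and 6 and switched replicates 4, 7 and 8, with adjusted p up to 0.109, and with only the groups compared in the fit (adjusted p = 0.0664), where the lifelong difference passed (adjusted p = 0.0319).

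**Figure D2:**
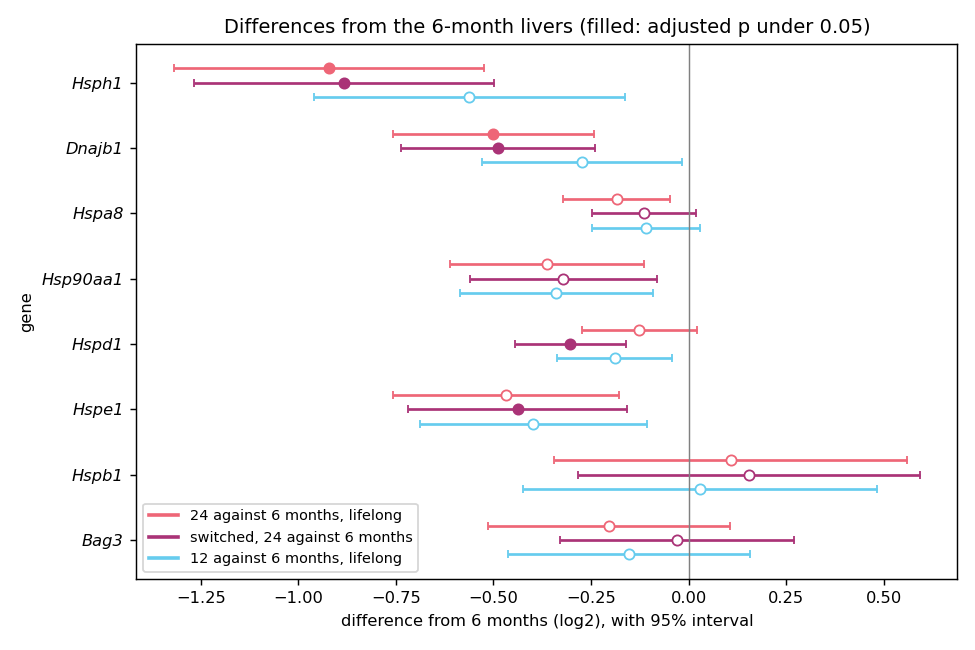
Difference in log2 expression from the 6-month livers, with the 95% interval of the limma fit, for lifelong mice at 12 and 24 months and switched mice at 24 months; filled points passed an adjusted p of 0.05. Hsph1 and Dnajb1 are filled in both old groups (-0.92 and -0.50 at 24 months), Hspd1 and Hspe1 in the switched group, and no 12-month point is filled.

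Hspb1 encodes the small heat shock protein HSP27, which holds unfolding proteins in a soluble state. It ran from 8.50 through a median of 8.86 to 9.18 at 6 months, from 8.47 through 8.73 to 9.82 at 12 months, from 8.21 through 8.97 to 9.37 at 24 months and from 8.34 through 9.00 to 10.09 in switched mice. The ranges of all 4 groups overlapped, and 6 of 7 lifelong old livers lay above the young mean. Its differences from 6 months were 0.03 (adjusted p = 0.978), 0.11 (adjusted p = 0.850) and 0.16 (adjusted p = 0.721) at 12 months, at 24 months and in switched mice. The interval at 24 months, -0.35 to 0.56, leaves room for a fall of the size seen for Hspa8.

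Bag3 encodes a co-chaperone that joins HSP70 to small heat shock proteins and to autophagy. It ran from 7.59 through a median of 8.19 to 8.61 at 6 months, from 7.60 through 7.96 to 8.44 at 12 months, from 7.70 through 7.88 to 8.34 at 24 months and from 7.76 through 8.18 to 8.61 in switched mice. No group stood apart. The differences from 6 months were -0.15 (adjusted p = 0.735), -0.20 (adjusted p = 0.508) and -0.03 (adjusted p = 0.936).

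At 12 months no member had passed, though most lay below the young mean. Against 6 months, 7 of the 8 genes lay lower at 12 months with a median of -0.23 over the 8 (median of all genes 0.01), and none passed, where 0.591% of all probe sets did. At an unadjusted p under 0.05, 5 of the 8 were lower, and 13.1% of all probe sets differed in either direction at that level. Between 12 and 24 months the median of the 8 was -0.06 (median of all genes -0.01), and none passed, where 0.0253% of all probe sets did. None of the 8 had an unadjusted p under 0.05, and 11.1% of all probe sets did. Hsph1 (-0.36, SE 0.19, adjusted p = 0.485) and Dnajb1 (-0.23, SE 0.12, adjusted p = 0.500) had the largest of these differences in size. At 24 against 6 months the median of the 8 was -0.28, and in switched mice -0.31, beside medians of -0.00 and -0.01 over all genes.

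The age at which the intermittent diet began made no difference that passed at 24 months. None of the 8 genes passed between switched and lifelong mice, where 0.0197% of all probe sets did, and the median of the 8 was 0.04. Of the 8 genes 1 had an unadjusted p under 0.05, as did 7.58% of all probe sets. This was Hspd1, lower in the switched group by a difference of -0.18 (95% interval -0.32 to -0.04, adjusted p = 0.531), with all 8 switched livers under the lifelong mean. For Hsph1 the interval of the difference, -0.33 to 0.41, does not show that the groups were alike.

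Within array-name prefixes the differences that passed kept their sign. For Hsph1 the difference between 24 and 6 months was -0.89, -0.56 and -1.25 in prefixes G150, G151 and G152, and for Dnajb1 -0.45, -0.40 and -0.73. The labels do not say what the prefix stands for, and G151 and G152 hold only 1 or 2 livers of each group. In switched mice the values for Hspd1 were -0.25, -0.36 and -0.44, and for Hspe1 -0.36, -0.39 and -0.77.

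The genes also varied from liver to liver within groups, and they did so in sets. Deviations of the 28 livers from their group and prefix were correlated for all 28 pairs of the 8 genes, with p from 100000 permutations adjusted over the 28 pairs. HSP110, HSC70, HSP40 and HSP90 moved together: r was 0.80 for Hsph1 and Hspa8 (rho 0.72, adjusted p = 9.33e-05), 0.75 for Hsph1 and Hsp90aa1 (rho 0.74, adjusted p = 9.33e-05) and 0.68 for Hsph1 and Dnajb1 (rho 0.72, adjusted p = 0.00042). The adjusted p of rho was 0.00021 for each. With the 2 livers farthest from the median of Hsph1 left out, r was 0.74, 0.74 and 0.69. In every pair these 2 livers were picked by 1 gene alone, so livers extreme in the other gene could stay in. Within the 18 livers of prefix G150 it was 0.84, 0.77 and 0.67, and the other 2 prefixes hold 5 livers each, too few for a value. The other pairs of these genes had an r of 0.67 (Hspa8 and Hsp90aa1, adjusted p = 0.00056), 0.60 (Dnajb1 and Hsp90aa1, adjusted p = 0.00292) and 0.56 (Dnajb1 and Hspa8, adjusted p = 0.0064). Without the 2 livers farthest in Hspa8 the first of these was 0.71. Without the 2 farthest in Dnajb1 the others were 0.46 and 0.60, so the r of Dnajb1 and Hsp90aa1 fell. An unadjusted p of 1e-05 is the smallest that the permutations can give, and 9.33e-05 is its value after adjustment. The permutations exchanged livers across groups of unequal spread (Hsp90aa1 SD 0.35 at 6 months and 0.12 in switched mice). For Hsph1, Dnajb1, Hspa8 and Hsp90aa1 alike, replicates 1 and 5 were the lowest young livers. How far the young livers carry these r values was not tested.

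The mitochondrial genes formed a pair. Hspd1 and Hspe1, which share the sequence printed above, had an r of 0.82 (rho 0.78, adjusted p = 9.33e-05, of rho 0.00021). It was 0.73 without the 2 livers farthest in Hspd1 and 0.83 within G150. Hspe1 had an r of 0.14 with Hsph1 (adjusted p = 0.742) and 0.03 with Hsp90aa1 (rho -0.06, adjusted p = 0.921). Hspd1 stood between, with an r of 0.44 with Dnajb1 (adjusted p = 0.0626) and 0.36 with Hsph1 (adjusted p = 0.129), neither of which passed. The r of Hspb1 with the other genes lay between -0.24 and -0.02 over all livers. Without the 2 livers farthest in the partner gene it ran from -0.27 with Dnajb1 to 0.22 with Hspd1 and 0.30 with Hspe1. Livers extreme in Hspb1 itself were left out only for its pair with Bag3. Of the 8, Hsp90aa1 had the highest median r with the others (0.60) and Hspb1 the lowest (-0.03). Hsp90aa1 and Bag3 had an r of 0.62 (rho 0.51, adjusted p = 0.0021, of rho 0.0203), which was 0.43 without the 2 livers farthest in Hsp90aa1.

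**Figure D3:**
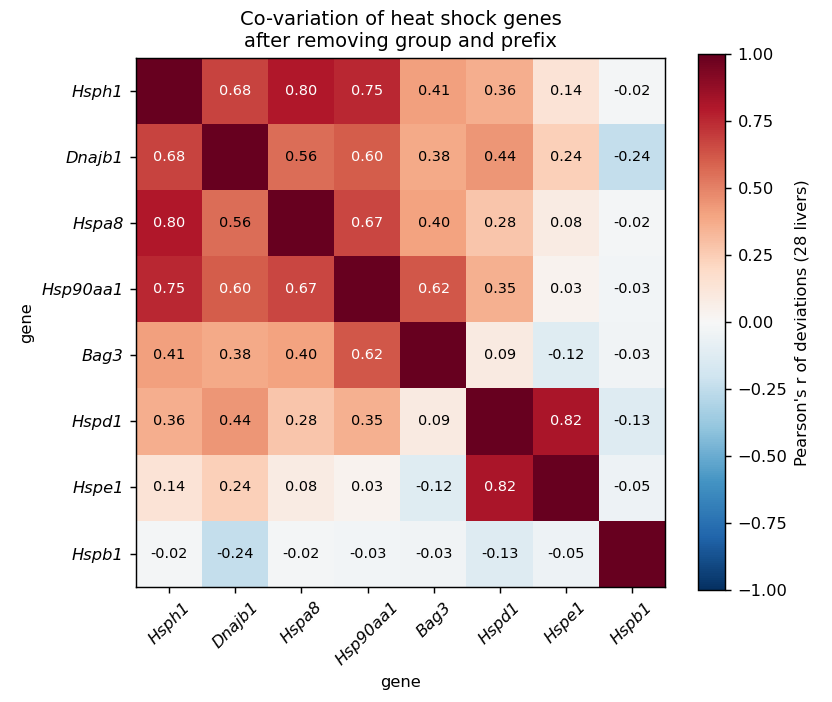
Pearson's r between the deviations of 28 livers from their group and prefix, for each pair of the 8 genes. Hsph1, Hspa8, Dnajb1 and Hsp90aa1 form a set with r up to 0.80, Hspd1 and Hspe1 stand as a pair at 0.82, and Hspb1 has no r above -0.02.

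**Figure D4:**
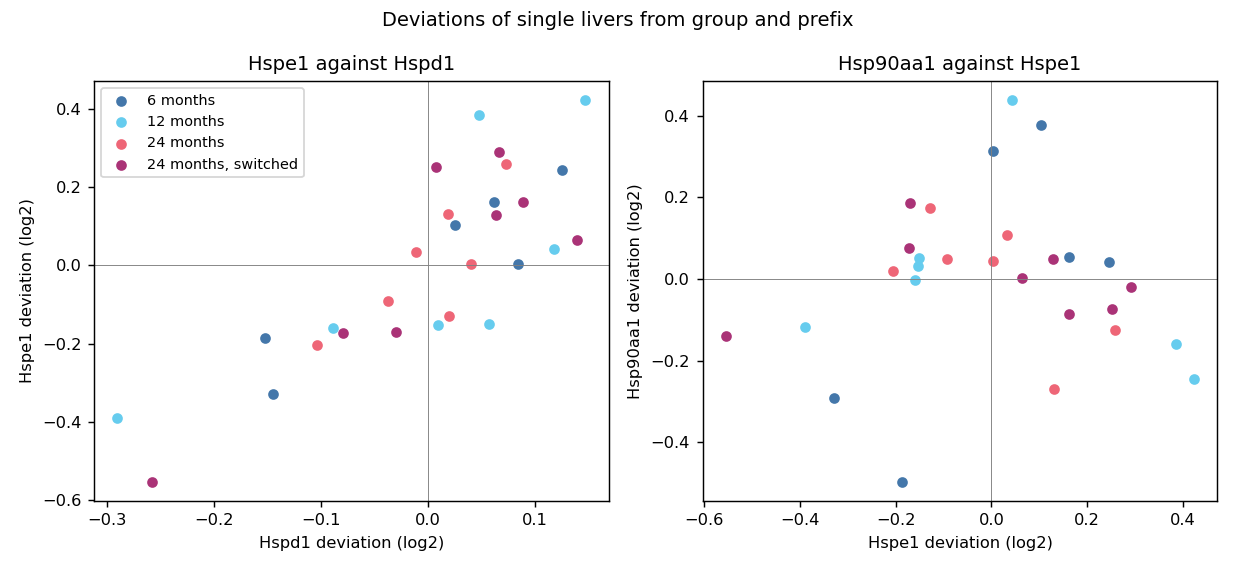
Deviation of each liver from its group and prefix (log2), Hspe1 against Hspd1 on the left and Hsp90aa1 against Hspe1 on the right, coloured by group. The left points lie along a line (r = 0.82) and the right ones do not (r = 0.03).

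Genes outside the 8 were ranked by the median r of their deviations to those of the members over the 28 livers. The highest were Pawr (median r to the members 0.64), Prkci (0.62), Lysmd3 (0.61), Cep170 (0.59), Capza1 (0.58), Otud7b (0.57), Dusp8 (0.57), Cacybp (0.57), Trappc13 (0.55) and Nme1 (0.55). The median over all 18820 genes was 0.01. None of the 10 varied with every member: their lowest r to a member ran from -0.05 (Capza1) down to -0.41 (Cacybp). Of these 10 genes, Lysmd3 (-0.52, adjusted p = 0.00645, and -0.49, adjusted p = 0.00326) and Cacybp (-0.35, adjusted p = 0.0213, and -0.34, adjusted p = 0.0107) passed as lower in the lifelong and switched old groups. Nme1 passed as lower in switched mice (-0.37, adjusted p = 0.00767). Among other chaperone genes, Chordc1, an HSP90 partner, had a median r of 0.50 (rank 42 of all genes), and Hsf4 the lowest at -0.39.

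The partners of these chaperones were lower more often than higher. The lists of other cytosolic and mitochondrial chaperones and of the HSF family held 59 measured genes. Of these, 11 passed as lower and 2 as higher at 24 against 6 months, with a median of -0.10. Over all probe sets 2.63% passed as lower and 2.10% as higher. In switched mice 18 passed as lower and 3 as higher, with a median of -0.08, beside 5.39% and 4.66% of all probe sets. The same shares stand beside the counts for each list below. Like the members, the lists were chosen with earlier results of these data known. At 12 against 6 months 2 of the 59 were lower, Dnaja2 (-0.27, adjusted p = 0.0361) and Cct7 (-0.26, adjusted p = 0.0482), where 0.591% of all probe sets passed in either direction. None passed between 12 and 24 months or between switched and lifelong mice.

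The CCT ring, the cytosolic chamber that folds actin and tubulin, had 5 of 8 subunit genes lower in each old group, with list medians of -0.21 and -0.25. Cct5 had a difference of -0.32 at 24 months (adjusted p = 0.0153) and -0.40 in switched mice (adjusted p = 0.00121), and Cct6a of -0.28 (adjusted p = 0.0178) and -0.34 (adjusted p = 0.00138). Cct2, Cct4 and Cct8 did not pass, at -0.08, -0.03 and -0.08 at 24 months. Of 10 genes in the HSP90 co-chaperone list, which includes the mitochondrial HSP90 Trap1, 3 were lower at 24 months and 5 in switched mice. Stip1, which links HSP70 to HSP90, had differences of -0.32 (adjusted p = 0.0199) and -0.39 (adjusted p = 0.00199). Chordc1 had -0.48 (adjusted p = 0.0158) and -0.53 (adjusted p = 0.00298), and Cdc37l1 -0.33 (adjusted p = 0.0061) and -0.29 (adjusted p = 0.00544).

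Of 11 other J proteins, 3 were lower and 1 higher at 24 months. Dnaja2, an HSP70 partner of the cytosol, had differences of -0.28 in both old groups (adjusted p = 0.00634 and 0.00166). Dnajb4 had -0.43 (adjusted p = 0.0150) and -0.37 (adjusted p = 0.0156), and the mitochondrial Dnaja3 -0.32 in both (adjusted p = 0.0150 and 0.00504). Dnajc7 was higher, at 0.25 (adjusted p = 0.0158) and 0.19 (adjusted p = 0.0280). In switched mice 4 J proteins were lower and 1 higher.

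Of 10 other HSP70 and HSP110 genes listed, 8 were measured. Hspa1a and Hspa1b were not among them, so a difference in these genes was not tested. None of the 8 passed at 24 months. Hspa9 (-0.12, adjusted p = 0.0434) and Hspa4 (-0.19, adjusted p = 0.0475) passed as lower in switched mice. Hspa9 is the mitochondrial HSP70. Of 6 mitochondrial partners Hscb, a J protein of iron-sulphur cluster assembly, was higher in both old groups (0.38, adjusted p = 0.0112, and 0.32, adjusted p = 0.0128) and none was lower. None of 7 HSP70 regulators passed in either old group. Of 5 other small heat shock proteins Hspb6 was lower in switched mice (-0.37, adjusted p = 0.0399). The HSF list held the factors Hsf2 and Hsf4 and the binding proteins Hsbp1 and Hsf2bp. Hsf2 was lower (-0.33, adjusted p = 0.0372) and Hsf4 higher (0.36, adjusted p = 0.0310) in switched mice, and none of these 4 genes passed at 24 months.

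Chaperones of the endoplasmic reticulum, which answer to another stress pathway, had 4 of 14 genes lower at 24 months and 6 of 14 in switched mice, with medians of -0.16 and -0.29. Hspa5, the HSP70 of that compartment, had differences of -0.61 (adjusted p = 0.00319) and -0.52 (adjusted p = 0.00298), and Creld2 of -1.06 (adjusted p = 0.00631) and -1.04 (adjusted p = 0.00237). A difference between this list and the heat shock genes was not tested.

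**Figure D5:**
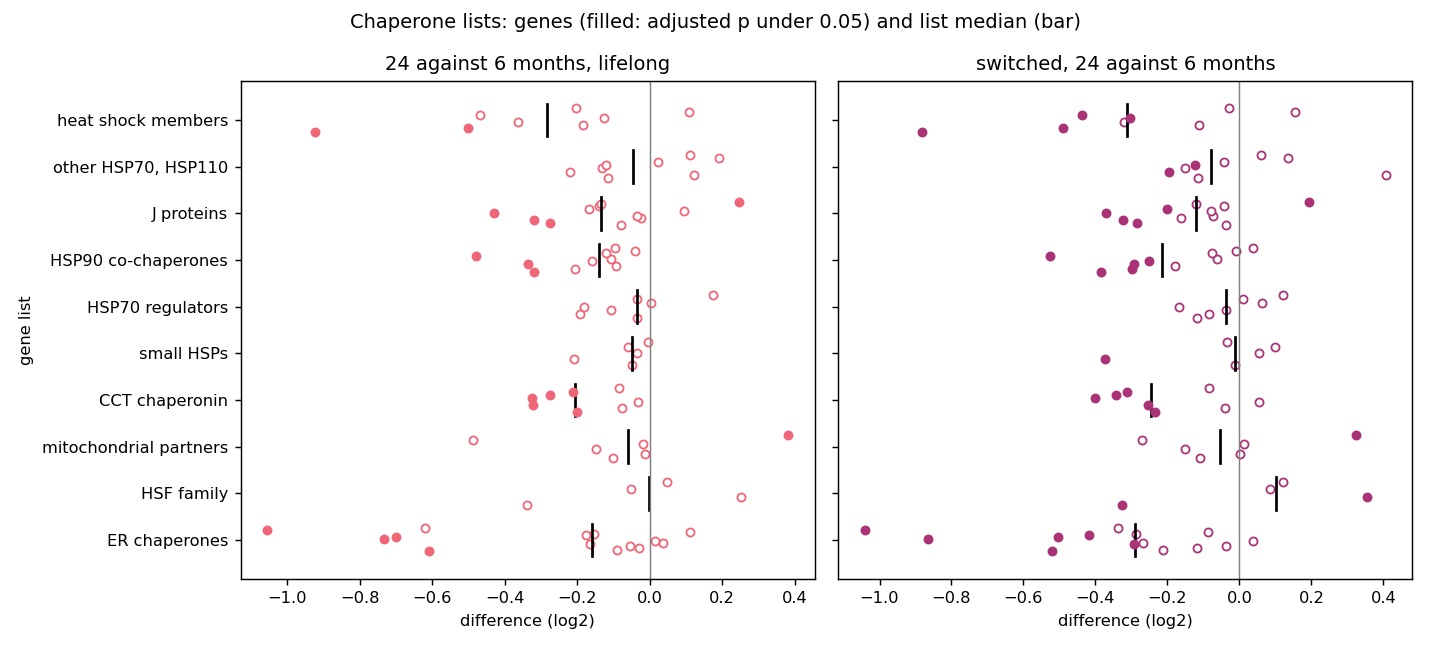
Differences from 6-month livers (log2) of every measured gene in the heat shock set and 9 other chaperone lists, for lifelong mice at 24 months (left) and switched mice (right); filled points passed an adjusted p of 0.05 and bars are list medians. The CCT list has 5 of 8 filled points in each panel, all below 0.

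Markers of other cells also differed. B cell markers were higher in old livers, 4 of 5 measured at 24 months (median 0.62) and 3 of 5 in switched mice (median 0.54). Their list score, the mean difference from the mean of all arrays, ran from -0.48 to -0.10 in young livers, -0.23 to 0.77 in lifelong old livers and -0.13 to 0.81 in switched livers. None of 8 Kupffer cell markers passed, with medians of 0.35 and 0.34 and scores from -0.37 to 0.23 in young, -0.51 to 1.09 in lifelong old and -0.55 to 1.61 in switched livers. Of 8 stellate cell markers 2 were higher in switched mice. Of 4 red cell markers 1 was measured, Alas2, the erythroid enzyme that starts haem synthesis, and it was lower in switched than in young livers (-0.70, SE 0.13, adjusted p = 0.00102). Its score ran from 0.02 to 0.39 in young, -0.35 to 0.29 in lifelong old and -1.02 to 0.08 in switched livers. None of 8 hepatocyte markers passed in either old group, with medians of -0.07 and -0.10. The part of these cells in the chaperone differences was not tested.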

How the data were processed

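Biotin-labelled liver cDNA, from RNA with an integrity number above 8.0, was read on whole-transcript arrays of a single colour. The deposited log2 expression values were made by the authors with RMA, per the submitters' processing notes (version not stated). No label says if the arrays went through RMA together. The number of mice limits the precision.

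Values were used as deposited. Of 35556 probe sets, 21218 name 1 gene, 1881 several and 12457 none in GEO's platform annotation. All 28 arrays entered 1 fit in limma 3.58.1 (R 4.3.3) with group and array-name prefix as terms and empirical Bayes moderation, tested two-sided. Named genes were all listed members, up to 4 genes with the smallest p among those that passed in each other list, and the 10 genes with the highest median r to the members, passing over predicted and unnamed genes; Cct2, Cct4 and Cct8 were named after their values were seen, as were 6-month replicates 1 and 5. The members and lists were chosen with earlier results of these data known. Correlations used numpy 2.4.6 and pandas 2.3.3 and figures matplotlib 3.10.9, all under Python 3.11.15. The fit was tested on simulated data, with 200 of the 35556 probe sets, drawn at random, moved and with independent noise. In the real comparisons other numbers of probe sets passed, so the shares recovered there can differ. Over the comparisons, 94% to 98% of probe sets moved by 1 were recovered. Of those moved by about as much as Dnajb1 at 24 against 6 months (-0.50), 60% to 68% were recovered. Differences of that size or smaller can thus fail to pass. Groups share replicate numbers, but these do not pair mice: of 39 pairs with the same number, 1 had an r over 0.1.

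Alternatives were no prefix term, single prefixes, only the groups compared, the dimmest 30 percent of probe sets left out, repeated quantile normalisation, median centring, a variance trend with robust moderation, array weights, a replicate block, only 1-gene probe sets, the mean of a gene's probe sets, no arrays with an added suffix in their name, and each array left out in turn.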

Additional observations from a re-analysis of the deposited data

Results flagged for a closer look

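Of 32 groups tested (8 genes in 4 groups), 3 held a liver far from the others of its group, and chance flags about 1 in 20 groups. Dnajb1 in 12-month replicate 4 was at 7.64, with the nearest other liver at 7.35. Hspb1 in 12-month replicate 2 was at 9.82, with the nearest other at 8.84. Hspb1 in lifelong 24-month replicate 7 was at 8.21, with the nearest other at 8.88; this array carries an added suffix in its name.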

How the results depend on the processing

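At 24 against 6 months, 2 members passed. The count was 0 with prefix G150 alone and with G151 and G152 alone (4 at an unadjusted p under 0.05 in each, as were 4890 and 3262 of all probe sets), and 1 with only the groups compared (Hspe1; Hsph1 then had an adjusted p of 0.0673 and Dnajb1 of 0.0585). In switched against 6-month mice, 4 passed: 0 with G150 alone and with G151 and G152 alone (4 unadjusted in each, as were 6008 and 3902 of all probe sets), and 2 with only the groups compared and 2 with the replicate block (Hsph1 and Hspd1 in both; Dnajb1 had an adjusted p of 0.0646 and Hspe1 of 0.124 under the block). The other settings with all groups gave 2 or 3 members at 24 months, Hspe1 being the added one, and 4 in switched mice. The single-prefix and group-only fits hold fewer livers; for the block the cause was not tested. The block left the count of 2 at 24 months. Of all livers, 2 of 28 correlated best with their own replicate number. With single livers left out, counts ran from 0 to 1 at 12 against 6 months (Hsp90aa1, adjusted p = 0.0434 without 6-month replicate 1), from 1 to 4 at 24 against 6 months and from 3 to 5 in switched against 6-month mice, and stayed 0 in the comparisons of 24 with 12 months and of switched with lifelong mice. Hsph1 passed in 13 of 13 and 14 of 14 such fits and Hspd1 in 14 of 14 in switched mice. No difference that passed changed sign. Over the array, single omissions moved the number of probe sets passing from 7 to 546 at 12 against 6 months and from 831 to 2370 at 24 against 6 months.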

Other observations

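In the young group, replicates 1 and 5 at 6 months were the lowest pair for 6 of the 8 genes (Hsph1, Dnajb1, Hspa8, Hsp90aa1, Hspd1 and Hspe1), but not for Hspb1 or Bag3. The mean deviation of the 8 genes from the mean of all arrays was -0.08 and -0.02 in these livers, against 0.28 to 0.50 in the other 4. These livers were picked by the values of the same genes, so this lower mean follows from the pick. Their CCT scores were 0.01 and 0.02, against 0.16 to 0.24 in the others, and their HSP90 co-chaperone scores -0.03 and -0.01, against 0.13 to 0.29. Their scores for chaperones of the endoplasmic reticulum, 0.26 and 0.02, did not stand together in this way. Both are arrays of prefix G150, as are replicates 2 and 3 and so 4 of the 6 young livers. Switched replicate 7 was the lowest of its group for Dnajb1, Hsp90aa1, Hspd1 and Hspe1 and the highest for Hspb1 (10.09), and its Kupffer score of 1.61 was the highest of all 28 livers.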
